A study of Cavia porcellus with 44 samples.

Results

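The comparison was between guinea pigs that were kept on a high fat diet for 32 weeks with either low or high vitamin C (vitC) in the feed. Of the 44 guinea pigs whose liver RNA was sequenced, 18 belonged to these groups: 10 HFL/HFL animals and 8 HFH animals, assigned by the group in their label. All were female Hartley guinea pigs with an unstated age, and all ate feed with 20% fat, 0.35% cholesterol and added sucrose ad libitum, with hay at hand. HFH animals had 2000 mg vitC/kg feed throughout. HFL/HFL animals had 50 mg vitC/kg feed before and after the re-randomization of the low vitC animals at week 16, so their diet stayed the same over both periods of 16 weeks. The question was what low vitC intake over the whole study goes with in the liver when the high fat diet is present all along. Intake was not matched between HFL/HFL and HFH by pair feeding, so vitC and the amount eaten cannot be told apart. Each animal gave 1 piece of the left lateral lobe.

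The guinea pig, like humans, cannot make ascorbate and takes all of it from the diet. Ascorbate keeps iron reduced in a family of dioxygenases, which hydroxylate collagen chains and HIF1 subunits and demethylate DNA and histones, and it also acts as an antioxidant. A diet rich in fat and cholesterol gives this species steatohepatitis with inflammation and fibrosis. The liver samples were bulk tissue, so fewer cells of a type and less RNA per cell cannot be told apart in any value that follows. No gene in the table measures vitC intake itself.

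Total counts per library were 21833186 to 30040014 in HFL/HFL and 21894545 to 35427724 in HFH, and the mean log2 total differed by -0.07 (two-sided exact permutation test, p = 0.433). HFL/HFL libraries had a count for fewer symbols, with 7778 to 8456 against 8271 to 8541 in HFH (two-sided exact permutation test of the means, chosen after the values were seen, p = 0.00151). HFL/HFL animals 93, 75 and 81 had the fewest, at 7778, 7788 and 7875, and the other HFL/HFL libraries had 8152 to 8456. The part of this gap between the groups in the results was not tested. HFH animals 6 and 61 stood apart in composition: their 10 most abundant symbols took 12.6% and 14.2% of the counts, where the other HFH animals had 16.2% to 20.9%. Hepatocyte markers were also lowest in HFH animal 6, with a summed level of 20947 CPM (the read count scaled to a fixed library size, with edgeR's effective sizes) beside a median of 64002 CPM in HFH and 55468 CPM in HFL/HFL. In HFL/HFL they were lowest in animal 75, at 27509 CPM. By the same sizes 3 counts, taken as the floor, were 0.0626 to 0.127 CPM in these 18 libraries, a limit that covers counting error only.

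A total of 21 genes differed between HFL/HFL and HFH at an adjusted p under 0.05, which is 0.271% of the 7750 symbols tested (edgeR's quasi-likelihood test, fitted jointly to the 6 groups, with Benjamini-Hochberg adjustment). Of these, 9 were higher in HFL/HFL (0.116% of symbols) and 12 were lower (0.155%). The change ranged from 0.44 to 3.64 on the log2 scale among the higher genes and from -0.45 to -1.86 among the lower genes. The adjusted p-values were all between 0.0219 and 0.0455, so none of the 21 stood far from the threshold. At an unadjusted p under 0.05, 658 symbols were higher in HFL/HFL (8.49%) and 686 were lower (8.85%), and with upper-quartile scaling 488 and 810. The median log2 fold change of all symbols was -0.02. Limma voom with sample weights called 557 genes (7.19%) and DESeq2 147 (1.9%), and a fit of edgeR to the HFL/HFL and HFH libraries only called 0, where 1303 symbols had an unadjusted p under 0.05.

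CFD and STEAP4 had the smallest p-values. CFD encodes complement factor D, the serine protease that starts the alternative pathway and is made in quantity by adipocytes. Its level was 40.5, 59.5 and 107 CPM in HFL/HFL (lowest, median and highest) and 12.5, 25.2 and 47.6 CPM in HFH. HFH animal 88 was the only HFH animal inside the HFL/HFL range, and the log2 fold change was 1.33 (SE 0.26, edgeR adjusted p = 0.0219). STEAP4, a metalloreductase that reduces iron and copper and responds to inflammation, was at 31.1, 52.9 and 123 CPM in HFL/HFL and at 8.53, 24.2 and 36.5 CPM in HFH. HFH animals 6, 47 and 88 overlapped the HFL/HFL animals, and the log2 fold change was 1.40 (SE 0.28, adjusted p = 0.0219).

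GRN, ATP6V0C and MCEE rose by less than CFD but varied less between animals. GRN encodes progranulin, a secreted glycoprotein that is also taken to lysosomes, and its level was 415 ± 65.7 CPM in HFL/HFL (SD, n = 10) and 302 ± 49.5 CPM in HFH (SD, n = 8). HFH animal 88, at 384 CPM, was the only HFH animal inside the HFL/HFL range (log2 fold change 0.46, SE 0.09, adjusted p = 0.0219). ATP6V0C, the proteolipid ring subunit of the proton pump that acidifies lysosomes, was at 439 ± 53.6 CPM in HFL/HFL and 323 ± 61.2 CPM in HFH (log2 fold change 0.44, SE 0.09, adjusted p = 0.0236). MCEE, the mitochondrial epimerase of the route from propionyl-CoA to succinyl-CoA, was at 104 ± 12.3 CPM against 74.9 ± 13.4 CPM (log2 fold change 0.47, SE 0.10, adjusted p = 0.0236).

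The other genes that rose were BRI3, BCAP31, NARS2 and ADRA1A. BRI3, a small membrane protein of lysosomes and vesicles, was at 346 ± 54.7 CPM in HFL/HFL and 231 ± 68.9 CPM in HFH. BCAP31, a chaperone of the endoplasmic reticulum membrane, was at 286 ± 49.9 CPM against 208 ± 31.5 CPM. NARS2, the mitochondrial asparaginyl-tRNA synthetase, was at 33.01 ± 8.89 CPM against 22.1 ± 4.05 CPM. Their log2 fold changes were 0.58, 0.46 and 0.58 and their adjusted p-values 0.0356, 0.0359 and 0.0390. ADRA1A, the alpha-1A adrenoceptor through which catecholamines raise hepatic glucose output, had the largest fold change of the 21 genes (log2 fold change 3.64, SE 0.76, adjusted p = 0.0236). Its level was low and uneven: 0, 3.11 and 10.8 CPM in HFL/HFL and 0, 0.181 and 1.09 CPM in HFH. All 8 HFH animals lay inside the HFL/HFL range, since HFL/HFL animals 29, 55 and 75 had 0, 0.378 and 0.172 CPM, and limma voom gave an adjusted p of 0.300.

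**Figure D1:**
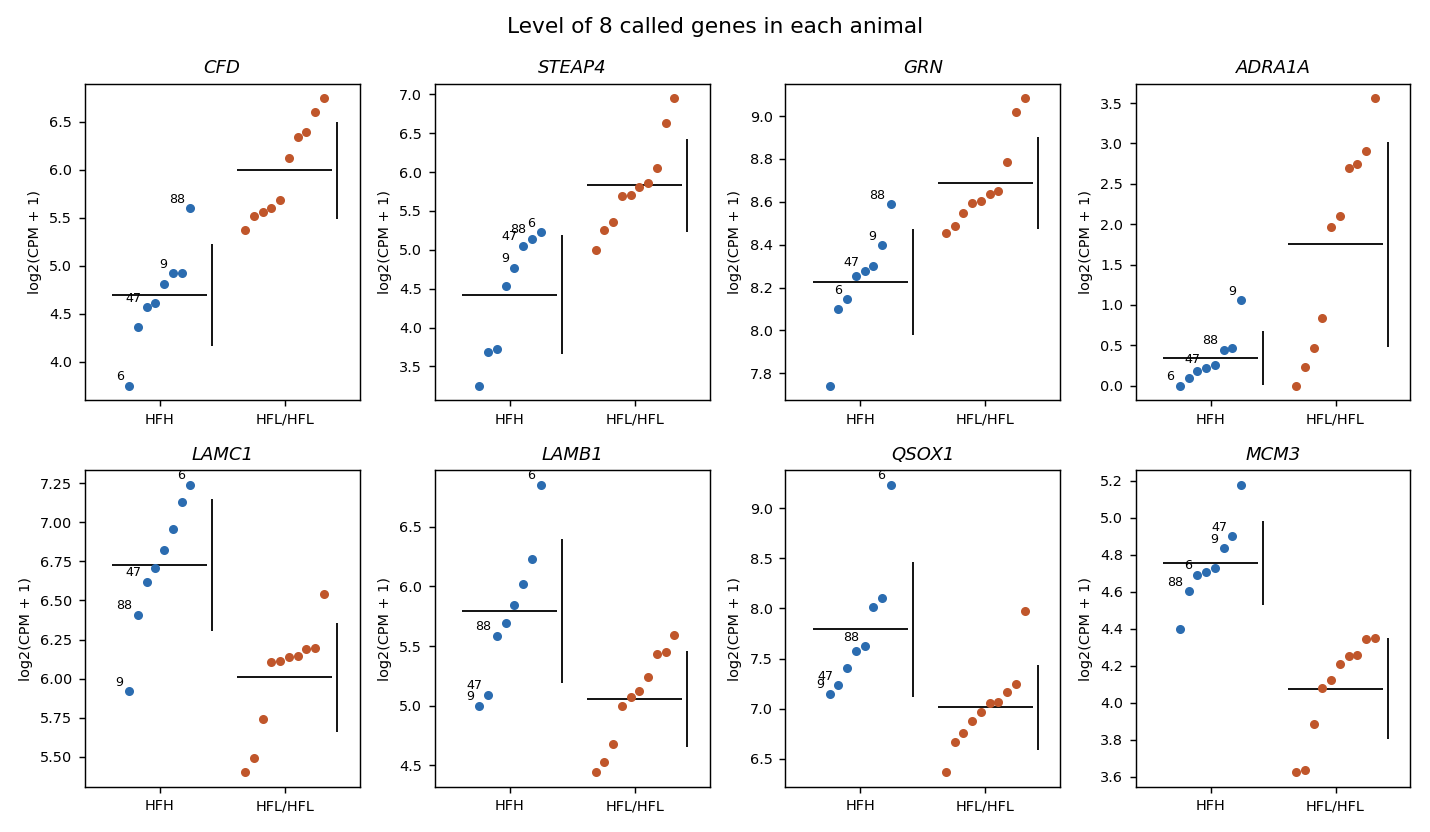
Levels of 8 of the 21 called genes as log2(CPM + 1) on the vertical axis, with HFH (blue, n = 8) and HFL/HFL (orange, n = 10) side by side, 1 point per animal spread by rank, the horizontal line at the mean and the vertical line spanning 1 SD either way. HFH animals 6, 9, 47 and 88 are numbered: 88 lies nearest to the HFL/HFL points for CFD and GRN, 6 is far above the others for QSOX1, and the groups are separate only for MCM3.

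Among the genes that fell were 2 laminin chains. LAMC1 encodes the gamma 1 chain and LAMB1 the beta 1 chain of the laminins, the trimers that anchor cells to the basement membrane. LAMC1 was at 41.2, 68.9 and 91.96 CPM in HFL/HFL and at 59.6, 108 and 150 CPM in HFH, with HFH animals 9 and 88 inside the HFL/HFL range (log2 fold change -0.74, SE 0.16, adjusted p = 0.0280). LAMB1 was at 20.7, 33.3 and 47.4 CPM in HFL/HFL and at 31.01, 53.6 and 115 CPM in HFH (log2 fold change -0.82, SE 0.18, adjusted p = 0.0281). The HFH values of LAMB1 were spread widely, from animals 9, 47 and 88, which overlapped HFL/HFL, up to animal 6, where the level was highest.

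QSOX1, a sulfhydryl oxidase that is secreted and forms disulfide bonds in matrix proteins including laminin, was at 81.4, 128 and 250 CPM in HFL/HFL and at 141, 193 and 601 CPM in HFH. The highest value was again HFH animal 6, and 5 of the 8 HFH animals lay inside the HFL/HFL range (log2 fold change -0.88, SE 0.21, adjusted p = 0.0400). ACAN, the large proteoglycan aggrecan, was at 0, 1.68 and 3.50 CPM in HFL/HFL and at 2.73, 7.36 and 10.03 CPM in HFH, with the lowest HFH values in animals 88 and 61 (log2 fold change -1.86, SE 0.42, adjusted p = 0.0356). ITGA9, the alpha 9 integrin chain that binds matrix ligands such as tenascin C, was at 62.96 ± 11.2 CPM against 87.7 ± 16.8 CPM (log2 fold change -0.48, SE 0.11, adjusted p = 0.0455). SSPN, sarcospan of the dystrophin complex that links cells to laminin, was at 9.28 ± 2.37 CPM against 16.9 ± 4.41 CPM (log2 fold change -0.87, SE 0.19, adjusted p = 0.0288).

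MCM3 was the only one of the 7750 symbols, or 0.0129%, whose CPM did not overlap between the groups. It is a subunit of the helicase that licenses and unwinds DNA at replication origins. The level was 11.3, 16.95 and 19.4 CPM in HFL/HFL and 20.1, 25.3 and 35.2 CPM in HFH, a log2 fold change of -0.70 (SE 0.16, adjusted p = 0.0400). The gap between the highest HFL/HFL animal and the lowest HFH animal was small beside the spread within either group.

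ECE1, SCARA3, TMEM98, FOLR1 and IGSF3 completed the genes that fell. ECE1, the protease that activates endothelin 1, was at 145 ± 18.3 CPM in HFL/HFL and 198 ± 29.8 CPM in HFH (log2 fold change -0.45, SE 0.09, adjusted p = 0.0219). SCARA3, a scavenger receptor induced by oxidative stress, was at 35.1 ± 6.83 CPM against 58.1 ± 18.3 CPM (log2 fold change -0.73, adjusted p = 0.0236). TMEM98, a transmembrane protein, was at 58.9 ± 10.7 CPM against 86.3 ± 22.9 CPM (log2 fold change -0.55, adjusted p = 0.0297). FOLR1, a folate receptor of epithelia, was at 0.890, 4.03 and 5.67 CPM in HFL/HFL and at 5.27, 7.47 and 18.2 CPM in HFH (log2 fold change -1.28, adjusted p = 0.0288). IGSF3, an immunoglobulin superfamily membrane protein, was at 4.30 ± 1.80 CPM against 8.91 ± 2.75 CPM (log2 fold change -1.05, adjusted p = 0.0455).

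How far these calls rest on single HFH animals was measured by leaving out each animal in turn. Without HFH animal 1, 14 or 61 no gene was called by edgeR, with 1073, 982 and 1128 genes at an unadjusted p under 0.05. The median adjusted p of the 21 genes in these fits was 0.0510, 0.0510 and 0.0794, and the highest 0.124, 0.142 and 0.126. Without animal 1 or 14 many of the 21 thus missed the threshold narrowly. Without HFH animal 6, STEAP4 alone was called, and without HFH animal 18 the calls were 12, all among the 21. Leaving out HFH animal 47, 9 or 88 went the other way: 57, 114 and 157 genes were called, and these included all 21 each time. On the HFL/HFL side the calls ran from 0 without animal 81, with 992 genes at an unadjusted p under 0.05, to 82 without animal 29. Without animal 93 the calls were 8. Animals 81 and 93 were among the libraries with a count for the fewest symbols, as was animal 75, without which the calls were 24. None of the 21 genes was called in every one of the 8 fits without an HFH animal.

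**Figure D2:**
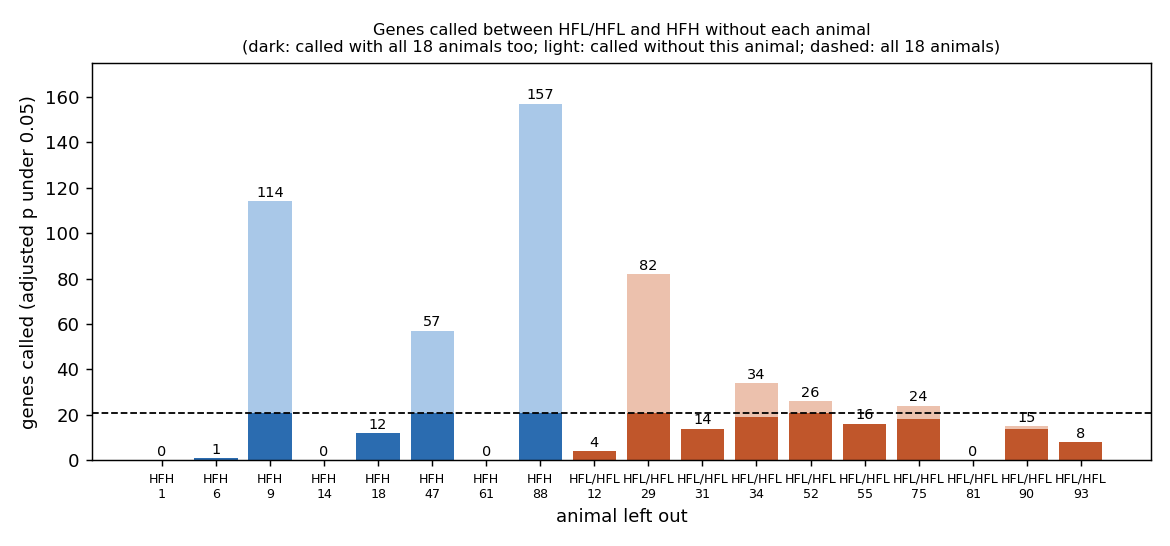
Number of genes called between HFL/HFL and HFH on the vertical axis when the animal on the horizontal axis was left out (HFH in blue, HFL/HFL in orange). Dark bars are genes also among the 21 called with all 18 animals (dashed line), light bars are further genes, and the count over the bars runs from 0 without HFH animals 1, 14 and 61 and HFL/HFL animal 81 to 157 without HFH animal 88.

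Among the 21 genes, HFH animal 88 was inside the HFL/HFL range for 18, animal 9 for 12 and animal 47 for 8. HFH animals 14 and 18 were inside it for 4 each, and animals 1, 6 and 61 for 2 each. So the 3 HFH animals whose omission added calls were those most often inside the HFL/HFL range. HFL/HFL animal 29 was inside the HFH range for 18 of the 21 genes, and HFL/HFL animals 81 and 93 for 0. The other HFL/HFL animals did not follow one order: animal 55 was inside it for 10 genes and 16 genes were called without it, while animal 34 was inside it for 9 with 34 calls and animal 75 for 7 with 24 calls. The 21 genes were chosen on these same animals, so these counts describe them and were not tested.

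The size and direction of the changes moved less than the calls did. All 21 genes kept their sign in each of the 18 fits, and their log2 fold changes were 0.626 to 1.18 times the value with all animals. The 21 were chosen on these same animals, with changes large beside their SE. Leaving out 1 animal could therefore hardly turn a sign, and the kept signs are not separate evidence. QSOX1 moved the most: its log2 fold change was -0.55 without HFH animal 6, where the adjusted p was 0.180. LAMB1 was at -0.61 without the same animal, with an adjusted p of 0.131, and TMEM98 at -0.42, also with 0.131. FOLR1 was at -1.02 with an adjusted p of 0.131 without that animal, and SCARA3 at -0.59 with 0.120. The highest unadjusted p of any of the 21 genes in any fit was 0.00230, for a fit without HFH animal 6.

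CFD, STEAP4, GRN, ATP6V0C and ECE1 held their calls best, each in 13 of the 18 fits. They also had the smallest p-values with all 18 animals, so this order is not separate from that one. Their highest adjusted p was 0.0794, without HFH animal 61. QSOX1 and IGSF3 held them least, in 6 and 5 of the 18 fits. BRI3, LAMB1, FOLR1, TMEM98, QSOX1 and ITGA9 were the 6 genes with the highest adjusted p without an HFH animal, from 0.126 to 0.180, and that animal was 6 for LAMB1, FOLR1, TMEM98 and QSOX1. A further 181 genes were called without at least 1 animal but not with all 18. C16orf54 was called in 7 of the 18 fits, more often than any other of these, and had an adjusted p of 0.0510 with all animals.

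**Figure D3:**
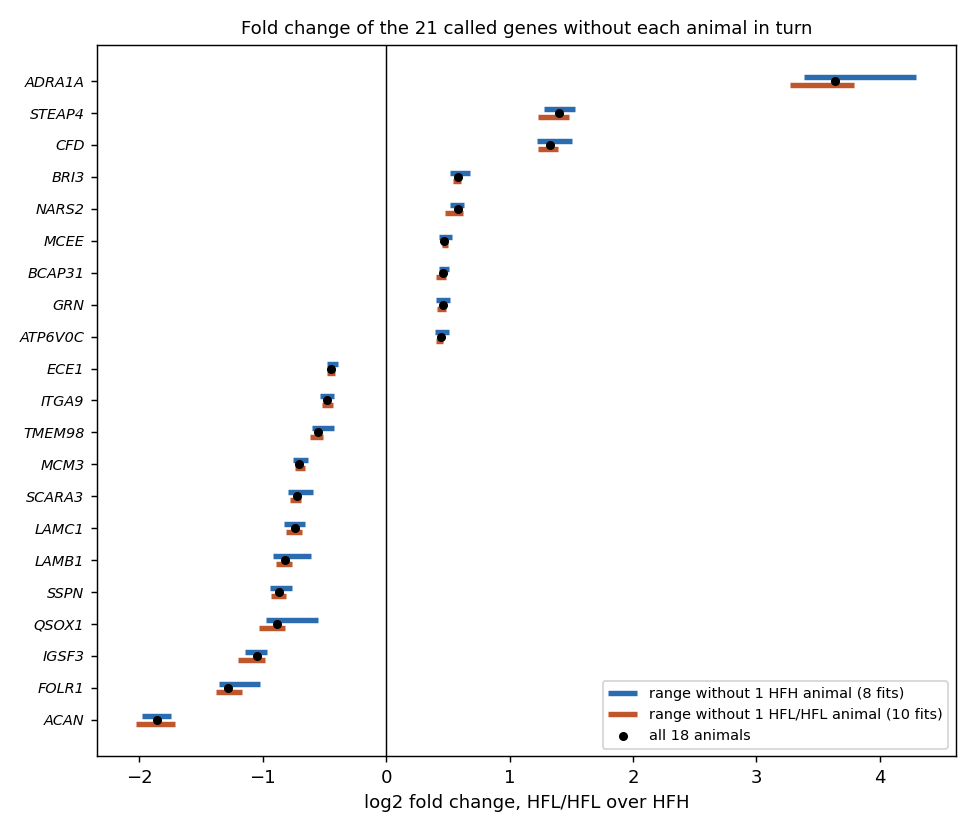
Log2 fold change of the 21 called genes on the horizontal axis (HFL/HFL over HFH), with a black point for all 18 animals, a blue bar for the range over the 8 fits that left out 1 HFH animal and an orange bar for the range over the 10 fits that left out 1 HFL/HFL animal. No bar crosses 0, where the genes were chosen on these same animals. The blue bars of QSOX1, from -0.97 to -0.55, and LAMB1, from -0.91 to -0.61, are among the longest relative to the change itself.

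Principal components of the variance-stabilized values put these animals in context. PC1 held 32.5% of the variance and showed no difference between the groups that the test could detect (HFL/HFL minus HFH 2.27, two-sided exact permutation test, p = 0.790, adjusted over 4 components p = 0.790). It ran from OTC, ALB and GC, genes of hepatocytes, at its low end to FXYD2, SCTR and CLDN10 at its high end, where SCTR is the secretin receptor of bile ducts. PC2 held 20.6% and differed: scores were -8.34 ± 9.69 in HFL/HFL (SD, n = 10) and 10.4 ± 11.02 in HFH (SD, n = 8), with an exact permutation p of 0.00169 (adjusted p = 0.00676). RNASE4 had the highest PC2 loading (0.096) and was also among the genes at the low end of PC1. TGFB3, GJA1, SFRP1, MMP11 and the erythroid genes ALAS2, HBA1 and HBA2 were also among the 12 genes with the highest PC2 loadings. SPINK1, STEAP4, CYP1A2, ADRA1A and CFD were among the 12 with the lowest. HFH animals 6 and 61 scored highest on PC2, at 24.9 and 22.3, and HFH animals 9, 88 and 47 scored lowest in their group, at -4.02, -0.850 and 0.314. HFL/HFL animal 29, at 9.07, was the only HFL/HFL animal above 0. The difference on PC2 held without each animal in turn, with values from -20.9 to -15.6, the smallest in size without HFH animal 6.

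**Figure D4:**
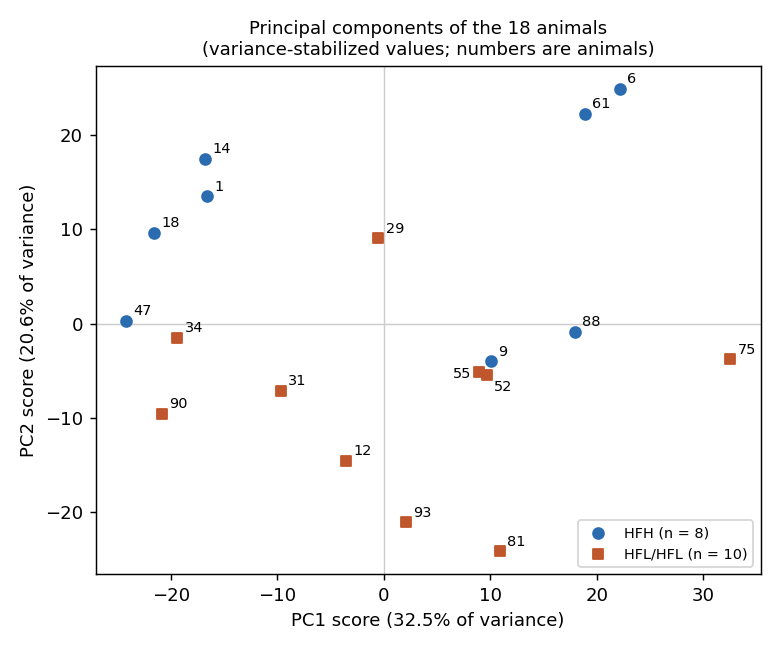
Scores of the 18 animals on PC1 (horizontal, 32.5% of the variance) and PC2 (vertical, 20.6%), with HFH as blue circles, HFL/HFL as orange squares and animal numbers beside them. HFH animals 1, 6, 14, 18 and 61 lie at 9 or above on PC2, and HFH animals 9, 47 and 88 lie among the HFL/HFL animals near 0.

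Of 14 tested basement membrane genes, from 25 listed, 10 had a log2 fold change below 0 and 4 above. By edgeR 2 of them, LAMC1 and LAMB1, fell at an adjusted p under 0.05, and 8 of the 14 (57.1%) were lower at an unadjusted p under 0.05 with 0 higher, against 8.85% and 8.49% over all symbols. Limma voom and DESeq2 called 4 each. The median log2 fold change was -0.49, and -0.27 with limma voom. NID2, a nidogen that bridges laminin and collagen IV, had a log2 fold change of -1.11 (SE 0.33, adjusted p = 0.0972). COL4A2, a chain of collagen IV, was at 331 ± 69.7 CPM in HFL/HFL and 488 ± 231 CPM in HFH (log2 fold change -0.56, adjusted p = 0.112), and -0.33 without HFH animal 6. LAMB2, NID1, AGRN, LAMC3, COL4A6 and LAMA3 had log2 fold changes of -0.08 to 0.30 with no unadjusted p under 0.05. HFH animal 6 weighed on the list: without it the median was -0.26, and 6 of the 14 genes had an unadjusted p under 0.05. Its summed level was 3461 CPM, where the HFH median was 2160 CPM and the HFL/HFL range was 1631 to 2353 CPM.

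Of 26 tested cell cycle genes, from 42 listed, 24 had a log2 fold change below 0, and edgeR called MCM3 alone. At an unadjusted p under 0.05, 12 of the 26 (46.2%) were lower and 0 higher, against 8.85% and 8.49% over all symbols. The median log2 fold change was -0.50. RRM2, the ribonucleotide reductase subunit made in S phase, had a log2 fold change of -1.11 (SE 0.37, adjusted p = 0.138), and RRM1, its partner subunit, -0.57 (SE 0.19, adjusted p = 0.136). CCNA2, cyclin A2, had -1.04 (adjusted p = 0.227) from levels of 3.07 ± 1.34 CPM in HFL/HFL and 6.32 ± 4.41 CPM in HFH. PCNA, MCM7, PLK1 and CCND1 had log2 fold changes of -0.11, -0.03, -0.03 and 0.08. The median was -0.41 without HFH animal 18, where 4 genes were lower at an unadjusted p under 0.05, and -0.56 without HFH animal 6, where 13 were. Limma voom called 7 genes of this list and DESeq2 1.

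**Figure D5:**
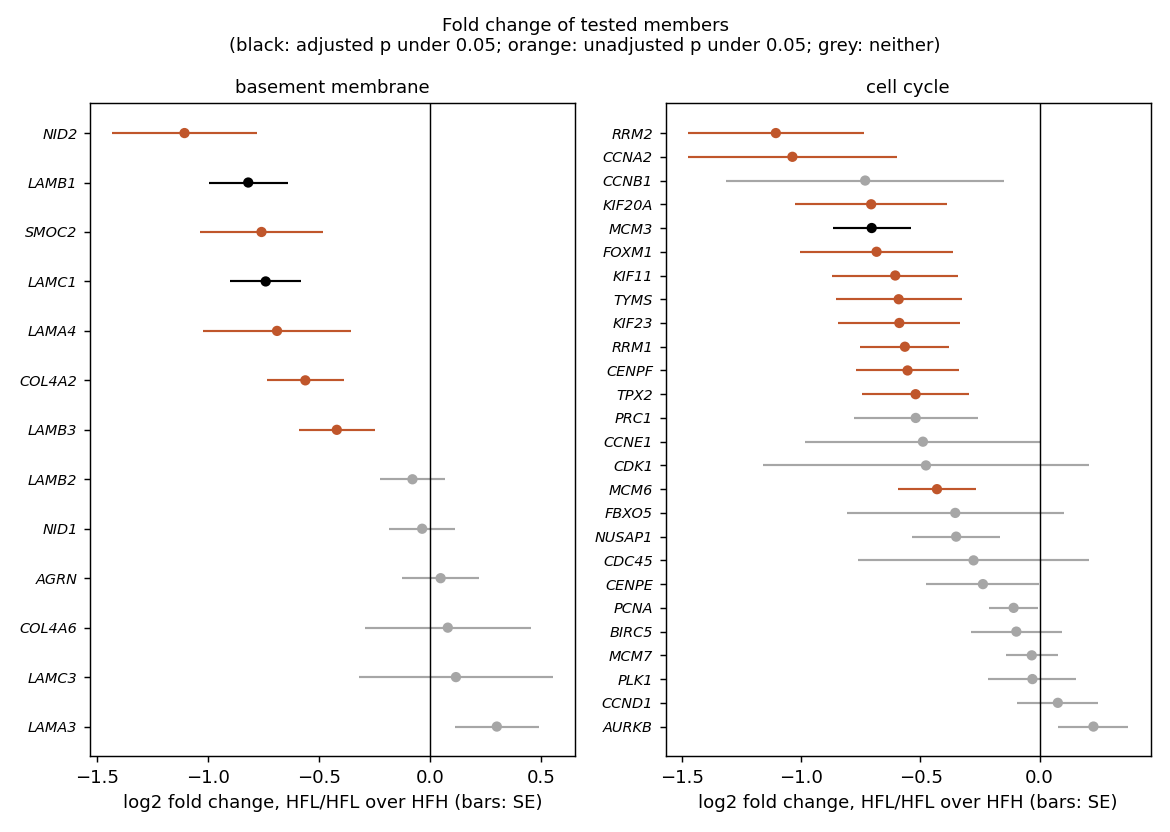
Log2 fold change (HFL/HFL over HFH, horizontal axis, bars are SE) of 13 of the 14 tested basement membrane genes and the 26 tested cell cycle genes. Black marks an adjusted p under 0.05 (LAMC1, LAMB1 and MCM3), orange an unadjusted p under 0.05 and grey neither; every black or orange point lies below 0.

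Of fibrillar collagens and other matrix genes 25 of 52 listed were tested, and edgeR called 0, limma voom 1 and DESeq2 1. The median log2 fold change was -0.26, and -0.08 with limma voom, with 4 lower (16.0%) and 2 higher (8.00%) at an unadjusted p under 0.05, against 8.85% and 8.49% over all symbols. LOXL4, a lysyl oxidase that crosslinks collagen, had a log2 fold change of 0.57 (adjusted p = 0.0903), and CTHRC1, a matrix protein of activated fibroblasts, -0.74 (adjusted p = 0.211). CTHRC1 was at 29.6 CPM in HFH animal 6 beside a HFH median of 7.71 CPM, and without that animal its log2 fold change was -0.31. Without HFH animal 6 the median of the list was -0.14 and 0 genes were lower at an unadjusted p under 0.05, and without HFH animal 47 the corresponding values were -0.35 and 9. In the list of stellate cell activation and TGF beta, 0 of 16 were called by edgeR, 2 by limma voom and 1 by DESeq2, and 4 (25.0%) were lower at an unadjusted p under 0.05. PDGFRB, the receptor through which platelet-derived growth factor drives stellate cells, was at 78.5 ± 22.1 CPM against 124 ± 49.3 CPM (log2 fold change -0.66, adjusted p = 0.0852). TGFB3, a TGF beta ligand, had a log2 fold change of -1.10 (adjusted p = 0.127). In the matrix turnover list edgeR called 0 of 16, limma voom 0 and DESeq2 2, with 4 lower (25.0%) and 1 higher (6.25%) at an unadjusted p under 0.05 in edgeR's test. MMP11, stromelysin 3, had -1.33 (SE 0.40, adjusted p = 0.105), a value that rests on HFH animal 6: it was at 423 CPM, the HFH median was 40.8 CPM, and without it the log2 fold change was -0.33 (unadjusted p = 0.298). CTSD, the lysosomal protease cathepsin D, had 0.46 (SE 0.14, adjusted p = 0.0948). CTSD has the same counts as another symbol of the table.

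Genes that handle or use vitC were not called by edgeR in this contrast, and few were by the other tools. In the list of vitC transport and recycling edgeR called 0 of 15 tested genes, limma voom 2 and DESeq2 1, the median log2 fold change was 0.06, and 2 (13.3%) were higher at an unadjusted p under 0.05, against 8.49% over all symbols. SLC23A2, the sodium-dependent transporter that brings ascorbate into most cells, was at 24.7, 50.6 and 58.5 CPM in HFL/HFL and at 28.6, 47.5 and 61.7 CPM in HFH, so the groups covered nearly the same range (log2 fold change 0.01, SE 0.15, adjusted p = 0.978). SLC23A1 was not analysed here. CYB561A3, a transmembrane reductase that uses ascorbate as its electron donor in lysosomes, was at 67.5 ± 6.93 CPM against 52.2 ± 12.7 CPM (log2 fold change 0.37, SE 0.11, adjusted p = 0.0903), and SLC2A8, a glucose transporter that also carries dehydroascorbate, had 0.72 (SE 0.23, adjusted p = 0.125).

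The list of hydroxylases that depend on ascorbate also holds genes that are not such enzymes, among them P4HB and PPIB. In it 15 were tested, edgeR called 0, limma voom 2 and DESeq2 1. At an unadjusted p under 0.05, 2 were higher and 2 lower (13.3% each), against 8.49% and 8.85% over all symbols. PAM, the copper enzyme that amidates peptide hormones with ascorbate, was at 56.1 ± 17.97 CPM in HFL/HFL and 92.8 ± 32.4 CPM in HFH (log2 fold change -0.73, SE 0.19, adjusted p = 0.0804). P4HA2, which hydroxylates proline in collagen, had 0.29 (adjusted p = 0.226), P3H1, which adds the 3-hydroxyl group, 0.48 (adjusted p = 0.227), and PLOD2, which hydroxylates lysine in collagen, -0.64 (adjusted p = 0.234). The list of TET and JmjC demethylases also holds FTO and ALKBH genes, which belong to neither family. In it 0 of 11 were called by any of these tools, and FTO (-0.34, adjusted p = 0.274) was the only one at an unadjusted p under 0.05. HIF1 targets had 0 of 27 called by edgeR and DESeq2 and 1 by limma voom, and a median log2 fold change of -0.03, with 3 (11.1%) lower at an unadjusted p under 0.05. NRF2 targets and antioxidant enzymes also had 0 of 26 called by edgeR and DESeq2 and 1 by limma voom, with a median of -0.04 and 4 higher (15.4%) and 1 lower (3.85%) at an unadjusted p under 0.05. PRDX5, a mitochondrial and peroxisomal peroxiredoxin, was at 622 ± 88.5 CPM against 482 ± 81.9 CPM (log2 fold change 0.37, adjusted p = 0.138), and TXNRD2, the mitochondrial thioredoxin reductase, had -0.26 (adjusted p = 0.204).

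Subunits of the mitochondrial respiratory chain had small fold changes, most of them above 0. Of 36 tested genes 0 were called by edgeR, 12 (33.3%) were higher and 2 (5.56%) lower at an unadjusted p under 0.05, against 8.49% and 8.85% over all symbols, and the median log2 fold change was 0.09. COX5B, a subunit of cytochrome oxidase, was at 278 ± 31.8 CPM against 230 ± 38.1 CPM (log2 fold change 0.27, SE 0.09, adjusted p = 0.138), and ATP5MC1, a ring subunit of ATP synthase, had 0.61 (SE 0.19, adjusted p = 0.112). NDUFS1 and CYC1 had log2 fold changes of -0.47 each (adjusted p = 0.227 each). Limma voom called 11 genes of this list (30.6%), where it called 7.19% of all symbols, and DESeq2 called 0.

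Lipid genes were not called by edgeR, while limma voom and DESeq2 called a few. For lipoproteins and sterol efflux edgeR called 0 of 14, limma voom 3 and DESeq2 3, 4 (28.6%) were higher at an unadjusted p under 0.05, against 8.49% over all symbols, and the median log2 fold change was 0.25 (0.16 without HFH animal 61). APOC1, a small apolipoprotein of VLDL and HDL, had a log2 fold change of 0.53 (SE 0.16, adjusted p = 0.0948), and its counts are the same as those of APOC2, which is counted with it among the 4 and in the calls of limma voom and DESeq2. Cholesterol biosynthesis had 0 of 15 called by any of the 3 tools, 1 lower at an unadjusted p under 0.05 and a median of -0.12. Fatty acid and triglyceride synthesis had 0 of 20 called by edgeR and 1 by each of the others, 1 higher and 2 lower at an unadjusted p under 0.05 and a median of -0.03, with ACACB, the acetyl-CoA carboxylase at the mitochondrial surface, at -0.92 (SE 0.25, adjusted p = 0.0852). Fatty acid oxidation and ketogenesis had 0 of 20 called by edgeR and DESeq2 and 1 by limma voom, 2 higher and 1 lower at an unadjusted p under 0.05 and a median of 0.03, with PDK4, the kinase that shuts off pyruvate dehydrogenase in fasting, at -0.48 (adjusted p = 0.163). Bile acid synthesis and transport had 0 of 11 called by any tool, 1 lower at an unadjusted p under 0.05 and a median of 0.09, or -0.01 with limma voom. CYP1A2, a cytochrome P450 of pericentral hepatocytes, was at 357 ± 201 CPM against 177 ± 89.4 CPM (log2 fold change 1.01, SE 0.37, adjusted p = 0.182, and 0.63 with limma voom), within a list of xenobiotic metabolism with 0 of 18 called by any tool and 3 higher at an unadjusted p under 0.05.

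Of the cell type markers edgeR called CFD alone. Cholangiocyte markers had 3 of 5 tested (60.0%) lower at an unadjusted p under 0.05, against 8.85% over all symbols, namely CLDN4 (-0.66, adjusted p = 0.187), EPCAM (-0.50, adjusted p = 0.266) and KRT7 (-0.74, adjusted p = 0.279). The other 2, KRT19 and KRT23, had a log2 fold change above 0. The count of 3 fell to 1 without HFH animal 6, HFH animal 61, HFL/HFL animal 12 or HFL/HFL animal 81. Without HFH animal 6 the median went from -0.50 to -0.30 (-0.32 with all animals and limma voom) and EPCAM to -0.30 (unadjusted p = 0.201). Limma voom called 1 cholangiocyte marker, edgeR and DESeq2 0. Their summed level was 678 to 1193 CPM in HFL/HFL and 806 to 1367 CPM in HFH, highest in animal 6. Markers of stellate cells and fibroblasts had 0 of 9 called by edgeR, 1 by each of the other tools and 3 (33.3%) lower at an unadjusted p under 0.05, a median of -0.21 (-0.13 without HFH animal 6 and -0.08 with limma voom) and summed levels of 965 to 2025 CPM and 1074 to 2922 CPM, again highest in HFH animal 6. Sinusoidal endothelial markers had 3 lower and 1 higher of 6 at an unadjusted p under 0.05, with 1 called by limma voom and 0 by edgeR and DESeq2. The part of these markers in the values of the basement membrane genes was not tested. Hepatocyte markers had 0 of 4 called by any tool and 1 at an unadjusted p under 0.05, ASGR2, a subunit of the asialoglycoprotein receptor, at 0.39 (SE 0.13, adjusted p = 0.129), and summed levels of 27509 to 80003 CPM and 20947 to 88677 CPM. Adipocyte markers had CFD called and 0 of the other 6 tested at an unadjusted p under 0.05. ADIPOQ and LEP, the defining adipocyte hormones, had at most 13 and 4 counts in any of the 18 libraries and were not tested. Of 11 markers of the exocrine pancreas in the table, AMY2A alone was tested (348.8 to 764 CPM in HFH), and the others had at most 13 counts.

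Markers of immune cells were not called by edgeR. Limma voom called 1 macrophage and 1 neutrophil marker and DESeq2 1 neutrophil marker. Macrophage markers had 3 of 6 higher at an unadjusted p under 0.05, against 8.49% over all symbols: C1QA, a chain of complement C1q made by macrophages, was at 577 ± 123 CPM against 386 ± 107 CPM (log2 fold change 0.58, SE 0.20, adjusted p = 0.148), and AIF1 had 0.46 (adjusted p = 0.227). Of the 6 macrophage markers 4 had a log2 fold change above 0 and 2 below, with a median of 0.38 (0.26 with limma voom). The summed macrophage level was 785 to 1365 CPM in HFL/HFL and 548 to 1079 CPM in HFH. Neutrophil markers had a median log2 fold change of 0.77 over 10 tested genes with 2 higher at an unadjusted p under 0.05. CSF3R, the receptor of granulocyte colony-stimulating factor, was at 15.2 ± 9.12 CPM against 6.65 ± 3.52 CPM (log2 fold change 1.19, SE 0.35, adjusted p = 0.0948), and S100A8, a calgranulin, had 1.26 (SE 0.58, adjusted p = 0.263). Markers of T and NK cells had 1 of 17 (5.88%) and those of B and plasma cells 1 of 10 (10.0%) higher at an unadjusted p under 0.05, shares near that of all symbols, and 0 called by any tool. The T and NK median ran from 0.04 without HFL/HFL animal 81 to 0.26 without HFH animal 88, around 0.15 with all animals, and the B and plasma cell median from -0.04 without HFH animal 6 to 0.23 without HFH animal 88, around 0.05. Erythroid markers were uneven: their summed level was 214 to 5100 CPM in HFL/HFL and 971 to 13111 CPM in HFH, highest in animal 9, and 0 of 3 were called by any tool, with 1 lower at an unadjusted p under 0.05.

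The HFL/HFH animals (n = 6), which had the same high fat feed with 50 mg vitC/kg for 16 weeks and then 2000 mg vitC/kg for 16 weeks, give a second reference for HFL/HFL. Against them 1 gene was called, 0.0129% of symbols, and 261 had an unadjusted p under 0.05. That gene was PADI6, named after its value was seen: it was at 200.1 CPM in HFL/HFH animal 20, at 0.334 CPM in 1 other HFL/HFH animal and at 0 in the other 4, so the call rests on 1 animal. This comparison shares its HFL/HFL animals with that against HFH. HFL/HFH had 37.96 ± 13.5 CPM of CFD (SD, n = 6), between HFL/HFL and HFH, and 53.4 ± 20.6 CPM of STEAP4, near the HFL/HFL mean of 60.8 CPM. NARS2 was at 20.7 ± 3.12 CPM and ECE1 at 194 ± 27.9 CPM, both near HFH. LAMC1 was at 80.3 ± 27.2 CPM, ITGA9 at 63.5 ± 6.47 CPM and IGSF3 at 6.60 ± 2.56 CPM. For none of the 21 genes was the adjusted p of HFL/HFL against HFL/HFH under 0.05, the lowest being 0.162 for NARS2.

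A related vitC contrast can be read in animals that changed to a low fat diet at week 16, HFL/LFL (n = 6) against HFL/LFH (n = 6), which share no animal with the comparison of HFL/HFL and HFH and were each pair fed to a high fat group. It is not the same contrast: both groups had 50 mg vitC/kg feed for the first 16 weeks and HFL/LFH had 2000 mg vitC/kg feed only for the last 16, whereas HFH had it throughout. Diet, pair feeding and the length of high vitC therefore cannot be told apart in what follows. The difference between the vitC contrasts was called for 0 genes (0% of symbols) by edgeR, with 1161 at an unadjusted p under 0.05. Limma voom called 16 and DESeq2 80. Across the 7750 genes the log2 fold changes of both contrasts had a Pearson correlation of -0.02 and a Spearman correlation of -0.09, and 44.9% had the same sign, where genes are not independent replicates. Of the 21 genes, 9 had the same sign in the low fat animals and 3 (14.3%) had an unadjusted p under 0.05 there, near the 11% of all symbols. In that contrast edgeR called 17 genes (0.219%). ACAN was lower with low vitC on both diets, with log2 fold changes of -1.86 on high fat and -1.84 on low fat (SE 0.53, adjusted p = 0.126), and CFD was higher on both, with 1.33 and 0.83 (SE 0.31, adjusted p = 0.260). LAMC1 had -0.74 on high fat and 0.56 on low fat, and the difference of -1.30 (SE 0.25) had the smallest adjusted p, 0.0551. COL4A2 had -0.56 and 0.65 (difference -1.22, adjusted p = 0.0626), FLT1, a receptor of vascular endothelial growth factor, -0.53 and 0.53 (difference -1.05, adjusted p = 0.0626), and ECE1 -0.45 and 0.20 (difference -0.65, adjusted p = 0.0626). RELL1 had -0.03 on high fat and 0.80 on low fat (difference -0.84, adjusted p = 0.0626).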

How the data were processed

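Liver RNA of 44 guinea pigs was sequenced after poly(A) selection, and 18 libraries, 10 of HFL/HFL and 8 of HFH, are compared here, 1 per animal. According to the methods and the submitters' processing notes, the authors trimmed reads with Trimmomatic 0.38.0, aligned them with HISAT2 2.1.0 to the Ensembl Cavia porcellus genome, quantified them with StringTie 2.1.1 and gave genes human orthologue symbols. They deposited counts per symbol, not normalized, and a table from DESeq2 of variance-stabilized log2 values. How StringTie output became counts is not given in the sources used here, nor is strand use, so overlapping genes may share reads. Several symbols carry the same counts and are named once.

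Counts were tested with edgeR 4.0.16 (R 4.3.3): TMM, quasi-likelihood F test, 1 mean per group over all 44 animals, 7750 of 11967 symbols with a total of at least 200, Benjamini-Hochberg adjustment per comparison, threshold 0.05. Fold changes are log2 of HFL/HFL over HFH. PCA used the deposited log2 values of 7747 genes. Group means of scores were compared by exact permutation (SciPy 1.17.1). The alternatives were RLE and upper-quartile scaling, other filters, same counts taken once, fits of fewer groups, limma 3.58.1 voom with sample weights, DESeq2 1.42.0 and leaving out each animal.

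The members, 30 gene lists, 12 marker lists and tests were chosen with earlier results of these data known. Lists are described by counts and medians and were not tested. The text names all called genes, up to 4 called genes per list or else the 2 smallest p-values, the vitC transporters, the genes most and least dependent on 1 animal and the 5 smallest p of the difference of contrasts. Other list members named were chosen after their values were seen. A few genes that these rules select are counted but not reported by name here. Scripts were checked on simulated data. Sequences and coordinates are not given since the annotation used for names has a different build.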

Additional observations from a re-analysis of the deposited data

Results flagged for a closer look

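Samples far from the rest of their group, by Dixon's ratio of the gap to the range, were looked for in 54 sets of values, in which chance alone flags about 1 in 20. In HFH (n = 8, critical value 0.526), animal 6 was highest for the PC3 score (ratio 0.62), for TMEM98 (0.538) and for QSOX1 (0.543), and animal 9 was highest for ADRA1A (0.56). In HFL/HFL (n = 10, critical value 0.466), animal 75 was lowest for SLC23A2 (0.567). Gene levels were taken as log2(CPM + 1). Without HFH animal 6 the log2 fold change of TMEM98 was -0.42 and that of QSOX1 -0.55, neither with an adjusted p under 0.05, and without HFH animal 9 that of ADRA1A was 4.30.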

How the results depend on the processing

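With all 18 animals the number of genes called between HFL/HFL and HFH was 19 to 23 under RLE or upper-quartile scaling, no filter, filterByExpr and same counts taken once, against 21. It was 32 with at least 200 counts in 1 animal, 557 with limma voom, 147 with DESeq2 (156 on these groups alone), and 0 both with edgeR on these groups alone and with the high fat animals only. With 0 calls, these edgeR fits had 1303 and 1362 symbols at an unadjusted p under 0.05, against 1344 in the fit of 6 groups. The cause was not tested. Without 1 animal the number called was 0 to 157, where each fit also has fewer samples. The call against HFL/HFH was PADI6 under RLE or upper-quartile scaling, no filter, at least 200 counts in 1 animal and same counts taken once. Limma voom and DESeq2 also called 1 gene each, but not PADI6. There were 0 calls with filterByExpr and with only the groups compared, and 2 with DESeq2 on only those groups. The 0 calls for the difference of vitC contrasts became 4 with upper-quartile scaling, 4 with at least 200 counts in 1 animal, 1 with same counts taken once, 8 with only the groups compared, 16 with limma voom, 80 with DESeq2 and 115 with DESeq2 on the groups compared, and the cause was not tested. RLE and upper-quartile scaling moved the median of all genes to -0.03 and -0.04, from -0.02.

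The PC2 difference kept its direction and call in each setting. Differences without a call changed sign: PC3 was -7.39 with genes scaled to an SD of 1, and without 1 animal PC1 ran from -3.28 to 9.09, PC3 from -2.004 to 4.44 and PC4 from -0.95 to 3.89. SLC23A2 had log2 fold changes of -0.0110 with upper-quartile scaling, -0.00128 with at least 200 counts in 1 animal and -0.0467 with limma voom, and -0.0663 to 0.0886 without 1 animal. AMY2A ran from -0.135 to 0.0296 and RELL1 from -0.0619 to 0.00614 without 1 animal. No called gene changed sign in any setting, which the choice of these genes on the same animals made likely. Of the medians of the 42 gene and marker lists, 16, none over 0.0901 in size, changed sign without some 1 animal. No paired analysis was possible because the animal numbers are unique, so no number occurs in both groups.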

Other observations

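In the remaining gene lists edgeR called CFD among 15 tested complement and coagulation genes and STEAP4 among 16 tested acute phase genes and no other gene. Limma voom called 3 complement and coagulation genes and DESeq2 2. Limma voom also called 1 gene each of TNF and NF-kB, heat shock and the circadian clock, and DESeq2 1 lipid-associated macrophage gene. For interferon gamma and antigen presentation, all 19 tested genes had a log2 fold change above 0, with a median of 0.21 beside -0.02 over all symbols, and 2 (10.5%, near the 8.49% of all symbols) were higher at an unadjusted p under 0.05: CXCL10, a chemokine for T cells (1.43, SE 0.61, adjusted p = 0.229; the value was 0.15 without HFL/HFL animal 90, which was at 281 CPM where the next highest was at 27.7 CPM), and TAPBP, which loads peptides on MHC class I (0.26, SE 0.11, adjusted p = 0.211) and has the same counts as 2 other symbols. The median stayed between 0.14 and 0.27 without any 1 animal. Lipid-associated macrophage genes had a median of 0.36 over 11 tested (0.23 with limma voom), with 8 above 0 and 3 below. At an unadjusted p under 0.05, 3 were higher (27.3%) and 1 lower (9.09%), against 8.49% and 8.85% over all symbols. They were CTSD, given with matrix turnover, MSR1, a scavenger receptor for modified lipoproteins, at 0.51 (adjusted p = 0.148), LGALS3, galectin 3, at 0.62 (adjusted p = 0.211), and the lower one, CD9, a tetraspanin, at -0.51 (adjusted p = 0.284). For TNF and NF-kB the median was 0.26 over 18 tested, with ZC3H12A, an RNase that degrades cytokine transcripts, at 0.53 (adjusted p = 0.192). Type I interferon genes had a median of 0.06 over 10 tested, or -0.01 with limma voom, with ZBP1 at 0.86 (adjusted p = 0.188).

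Heat shock genes had a median of -0.04 over 13 tested, with HSP90AA1, the inducible cytosolic HSP90, at 492.6 ± 188 CPM in HFL/HFL and 772 ± 321 CPM in HFH (log2 fold change -0.65, adjusted p = 0.199). Endoplasmic reticulum stress genes and immediate early genes had medians of 0.01 and 0.09 with 0 at an unadjusted p under 0.05. NR1D1, a repressor of the circadian clock, had 0.35 (adjusted p = 0.263). HMOX1, heme oxygenase 1, was at 462 ± 82.1 CPM against 344 ± 122 CPM (log2 fold change 0.43, SE 0.19, adjusted p = 0.239). In amino acid and urea metabolism (15 tested, median -0.03), TDO2, which opens the tryptophan ring, had 0.37 (adjusted p = 0.195) and OAT, ornithine aminotransferase, -0.49 (adjusted p = 0.254). In glucose metabolism (14 tested, median -0.05), GCGR, the glucagon receptor, had 0.43 (adjusted p = 0.258) and PFKM, a phosphofructokinase, -0.64 (adjusted p = 0.238).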
